A study of Mus musculus with 6 samples.

Results

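Platelets and the megakaryocytes that make them carry receptors for thrombin, adenine nucleotides and prostanoids, and 10 genes of that kind were followed here across the loss of Txnip, the gene of thioredoxin-interacting protein. The genes were chosen by name: F2r, F2rl2 and F2rl3 for thrombin, P2ry1, P2ry12 and P2rx1 for nucleotides, Tbxa2r, Ptgir and Ptger3 for prostanoids, and Pear1, a receptor engaged when platelets touch. All 10 were found among the 24410 gene symbols of the deposited table, and 9 reached 1 FPKM (fragments per kilobase of transcript, scaled to the mapped fragments) in at least 3 libraries, the filter for testing. The group labelled Txnip -/- (KO) and the wild-type group (WT) each held 3 libraries from C57BL/6 mice 5 months old. In both groups, marrow cells without lineage markers were cultured for 3 days with 100 ng/mL stem cell factor and 20 ng/mL thrombopoietin, and CD41+ cells were then sorted. How the Txnip allele was made, and whether each library came from its own mouse, is not given in the sources used here, so p-values rest on the spread between libraries of a group, and that spread may be technical.

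Thrombin receptors of the protease-activated family are switched on when thrombin cuts their outer end, which uncovers a tethered ligand. In mice, platelets answer thrombin mainly through F2rl3 (PAR4), with F2rl2 (PAR3) as its cofactor, whereas human platelets use F2R (PAR1) beside PAR4. ADP acts on P2ry1, which couples to Gq and calcium release, and on P2ry12, which couples to Gi and lowers cAMP, while P2rx1 is a cation channel opened by ATP. Thromboxane acts on Tbxa2r and activates platelets, prostacyclin acts on Ptgir and restrains them by raising cAMP, and prostaglandin E2 acts on Ptger3, which couples to Gi.

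The libraries carried megakaryocyte transcripts. Itga2b, which encodes the sorted antigen CD41, lay between 92.75 and 151.58 FPKM in KO libraries and between 83.24 and 110.59 FPKM in WT libraries. Transcripts of other blood cells were abundant too: the summed level of 11 neutrophil markers, Mpo among them, ran from 2770 to 6747 FPKM in KO libraries and from 4642 to 5309 FPKM in WT libraries. T and B lymphocyte markers summed to at most 1.1 FPKM, and Cd3e was listed at 0 in every library. Txnip was listed at 0, 0.04 and 0 FPKM in KO 1 to KO 3, against 112.35, 227.96 and 143.41 FPKM in WT 1 to WT 3, in the direction of the genotype labels. Read depth, estimated from the spacing of low values, was 14500000 to 25800000 fragments in KO libraries and 19200000 to 20000000 in WT libraries. The FPKM of all genes summed to 1131641 in WT 2 and to 715205 to 805730 in the other libraries. Of that sum, the genes Rpph1 and Rmrp held 30.4% in WT 2 and 10.7% to 20.6% elsewhere. Libraries with the same replicate number resembled each other across genotypes and shared the sex-linked pattern (Ddx3y in numbers 1 and 2, Xist in number 3), so each KO library is also set against the WT library of its number, below called a pair. By these genes number 3 differed in sex from numbers 1 and 2, so the spread within each group includes a sex difference. In the sorted bulk RNA, fewer cells of a type and less RNA per cell cannot be told apart.

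The receptors spanned a wide range of levels, from P2ry12 at 0.19 to 1.84 FPKM to F2r at 67.35 to 113.83 FPKM. On the FPKM scale, which is per length, F2r led with a mean of 88.9 over the 6 libraries and stood at the 89.1st to 93.3rd percentile of tested genes. It was above every other receptor in all 6 libraries, and its range did not touch that of the next. F2rl3 (mean 17.1), P2rx1 (16.6) and Ptger3 (13.4) followed. F2rl3 was above P2rx1 in 3 of 6 libraries, so those neighbours were not separated by level. P2ry1 came next with a mean of 10.2 FPKM and was below Ptger3 in all 6 libraries. F2rl2 (5.73), Pear1 (5.64) and Ptgir (5.60) had overlapping ranges: F2rl2 was above Pear1 in 3 of 6 libraries, and Pear1 above Ptgir in 4. Tbxa2r averaged 2.81 FPKM and P2ry12 0.735 FPKM, and P2ry12 was the lowest receptor in all 6 libraries.

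**Figure D1:**
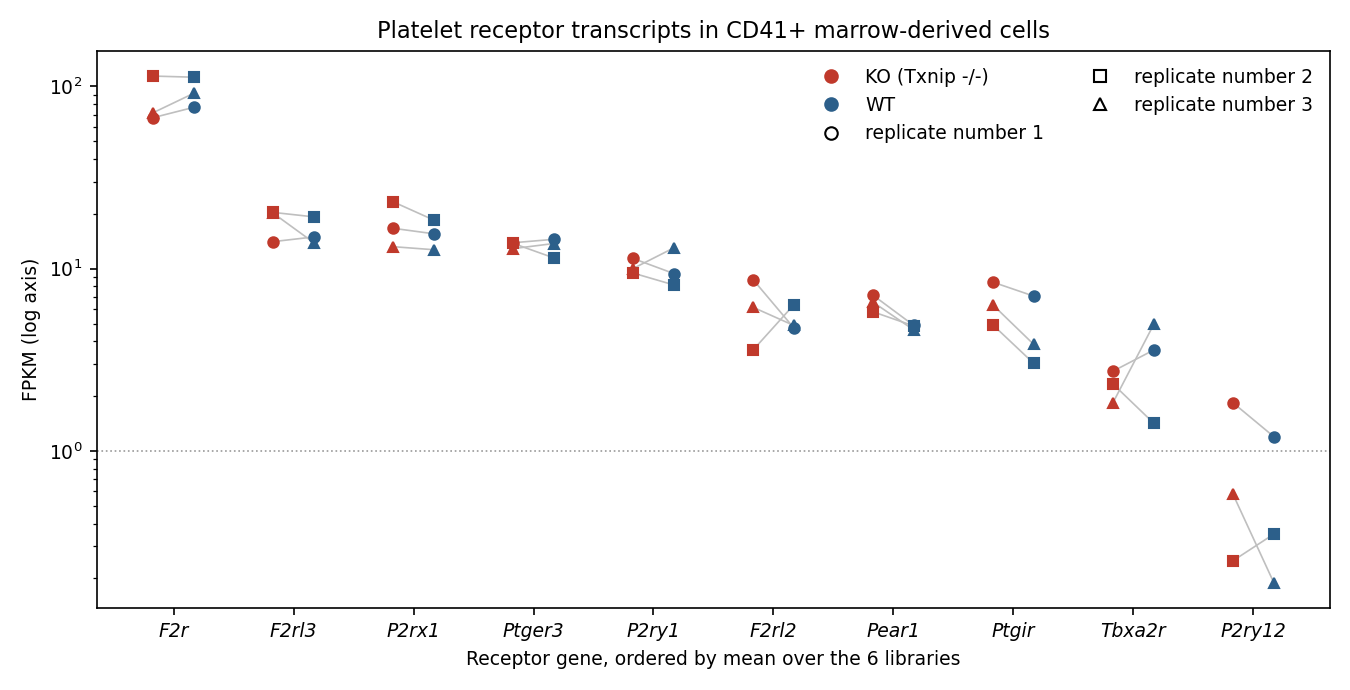
FPKM on a log axis of the 10 receptor genes, ordered by their mean over 6 libraries, with KO libraries in red on the left and WT libraries in blue on the right of each gene. Each point is 1 library, its shape gives the replicate number grey lines join pairs and the dotted line marks 1 FPKM; F2r stands above the rest, P2ry12 is the lowest, and the KO points lie wholly above the WT points for Pear1 alone.

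No receptor passed the test of KO against WT. The test was limma on log2(FPKM + 1) over 11249 genes with Benjamini-Hochberg adjustment, and 0 of 9 tested receptors had an adjusted p under 0.05, where 0.0178% of all tested genes did. With the replicate number as a block, again 0 of 9 passed, against 0.0267% of all genes. At an unadjusted p under 0.05, limma gave 0 of 9 receptors without the block, against 0.676% of all genes, and with the block 2 of 9, Ptgir and Pear1, against 6.93%. Differences were positive for 7 receptors and negative for 2, and 7131 of all 11249 genes were also positive. Under other scalings 3 of these signs turned, P2ry1 and Ptger3 with quantile normalization and F2r with a common FPKM sum. The median difference on the log2(FPKM + 1) scale was 0.12 over the 9 receptors and 0.06 over all tested genes. That median was 0.015 without KO 1 and 0.23 without WT 2. The summed level of the 10 genes was 152.2, 197.5 and 149.4 FPKM in KO 1 to KO 3, against 152.6, 185.5 and 163.5 FPKM in WT 1 to WT 3, so the groups overlapped.

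**Figure D2:**
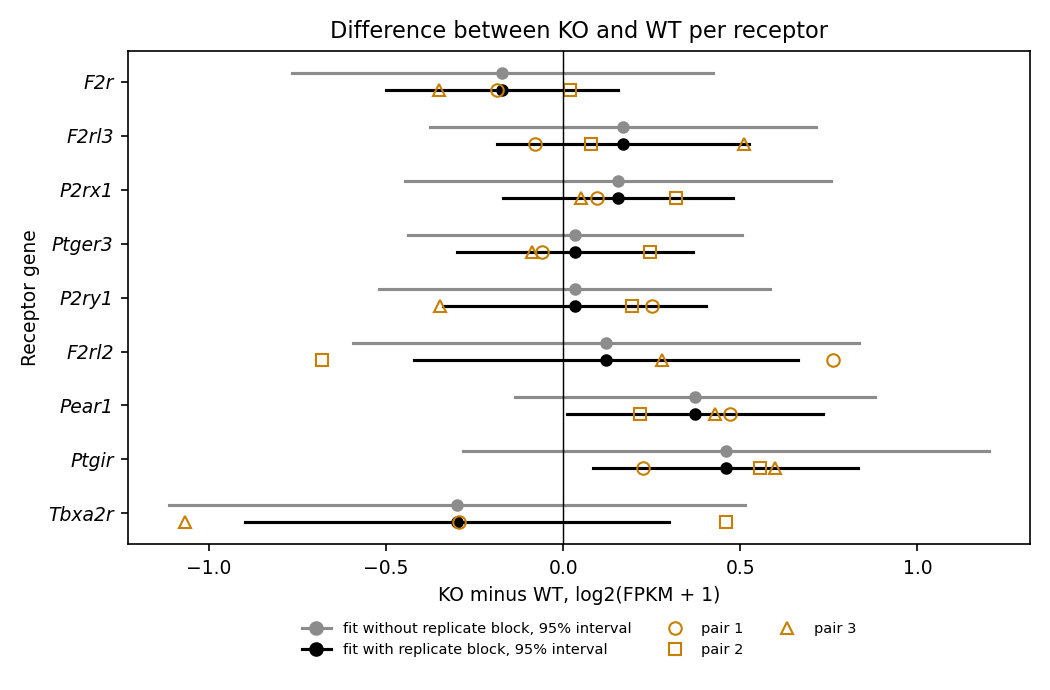
Difference between KO and WT on the log2(FPKM + 1) scale for the 9 tested receptors; grey bars are 95% intervals of the limma fit without the replicate block, black bars those of the fit with it, and open symbols are the 3 pairs. All grey intervals include 0, while the black intervals of Pear1 (0.01 to 0.73) and Ptgir (0.09 to 0.83) lie just above it, though neither passed after adjustment.

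Among the thrombin receptors, F2r accounted for most of the transcript in the sorted cells, and which cell types carried it was not tested. F2r took 74.7%, 82.6% and 73.2% of the summed FPKM of the 3 genes in KO 1 to KO 3, against 79.6%, 81.4% and 83.0% in WT 1 to WT 3. F2rl3, the main signalling receptor of mouse platelets, took 12.6% to 20.6%, and its cofactor F2rl2 2.60% to 9.66%. The promoter windows of these genes, 250 bases before to 50 bases after the transcription start, are shown because the transcripts differ so widely in level. The sequences are RefSeq's on GRCm38.p6, another build than the mm9 of the expression values, and all 10 genes were matched by symbol, Tbxa2r with 2 windows. Capitals mark the letters of 3 motifs searched on both strands: a GATA motif (AGATAA or AGATAG or TGATAA or TGATAG), an ETS motif (GGAAGT) and a RUNX motif (TGTGGT or TGCGGT).
F2r, chr13:95618417-95618716, minus strand: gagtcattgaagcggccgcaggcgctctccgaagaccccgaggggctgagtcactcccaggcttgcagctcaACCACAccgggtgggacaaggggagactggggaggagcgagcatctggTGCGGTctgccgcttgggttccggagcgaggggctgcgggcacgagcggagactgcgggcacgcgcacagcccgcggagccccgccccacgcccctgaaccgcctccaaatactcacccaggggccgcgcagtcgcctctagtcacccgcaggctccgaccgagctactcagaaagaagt
F2rl3, chr8:72761409-72761708, plus strand: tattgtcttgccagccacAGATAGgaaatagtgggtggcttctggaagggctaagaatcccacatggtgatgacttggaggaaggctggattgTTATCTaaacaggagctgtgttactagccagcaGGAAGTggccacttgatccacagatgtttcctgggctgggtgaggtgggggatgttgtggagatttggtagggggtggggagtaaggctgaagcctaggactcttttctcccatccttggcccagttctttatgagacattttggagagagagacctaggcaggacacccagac
F2rl2, chr13:95696670-95696969, plus strand: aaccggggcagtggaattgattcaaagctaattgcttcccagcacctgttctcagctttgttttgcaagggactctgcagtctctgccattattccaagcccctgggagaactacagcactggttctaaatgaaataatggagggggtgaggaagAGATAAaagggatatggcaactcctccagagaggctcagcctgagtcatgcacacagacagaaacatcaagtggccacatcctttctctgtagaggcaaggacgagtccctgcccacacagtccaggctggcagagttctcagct

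The F2r window held the RUNX letters at 2 places, 178 and 130 bases before the start, and no GATA or ETS letters. The F2rl3 window held the GATA letters at 2 places, 232 and 157 bases before the start, and the ETS letters 124 bases before it. The F2rl2 window held the GATA letters once, 95 bases before the start. Of 32851 windows in the table, 29.8% held the GATA letters, 23.8% the ETS letters and 22.4% the RUNX letters, against 3, 3 and 1 of the 11 receptor windows. A match is a description of the letters and not of a bound site. Base composition also differed, with 68.7% G and C in the F2r window, 51.3% in that of F2rl3 and 50.7% in that of F2rl2.

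F2r was at 67.35, 113.83 and 71.7 FPKM in KO 1 to KO 3, against 76.77, 112.21 and 91.74 FPKM in WT 1 to WT 3. The groups overlapped, number 2 was the highest library in both, and KO was lower in 2 of 3 pairs. The difference was −0.17 (SE 0.26; limma, adjusted p = 1.00), with a 95% interval of −0.77 to 0.42, or −0.50 to 0.15 with the block. It was −0.41 without KO 2, −0.31 without WT 1, −0.08 without KO 3, and −0.03 without KO 1 or without WT 2. Measured against Itga2b in the same library, F2r was lower in KO in 3 of 3 pairs. On that relative log2 scale the difference was −0.37 (exact permutation test, two-sided, without pairing, p = 0.1, the smallest that 3 against 3 libraries allow). Against the mean of 13 megakaryocyte markers it was −0.25 (exact permutation p = 0.3). Both tests were run for every receptor with no adjustment for their number, and only F2r against Itga2b was at p = 0.1 (exact permutation test). Against Itga2b, Ptger3 was also lower in KO in 3 of 3 pairs (−0.16), and Ptgir was higher in 3 of 3 (0.26). Itga2b itself was at 92.75, 151.58 and 109.02 FPKM in KO 1 to KO 3, against 83.24, 110.59 and 110.07 FPKM in WT 1 to WT 3. The share of all genes lower in 3 of 3 pairs on this scale was not computed.

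F2rl3 was at 14.07, 20.35 and 20.15 FPKM in KO 1 to KO 3, against 14.93, 19.23 and 13.86 FPKM in WT 1 to WT 3. Pairs 1 and 2 were nearly level, with KO to WT ratios of 0.942 and 1.06, and pair 3 stood at 1.45. The difference was 0.17 (SE 0.24; limma, adjusted p = 1.00; 95% interval −0.38 to 0.71), and it ran from 0.08 without WT 3 to 0.33 without KO 1. F2rl2 was at 8.71, 3.58 and 6.14 FPKM in KO 1 to KO 3, against 4.73, 6.34 and 4.88 FPKM in WT 1 to WT 3. The KO libraries enclosed the whole WT range, with the highest value in KO 1 and the lowest in KO 2, and the difference of 0.12 turned to −0.13 without KO 1. F2rl2 lies within the span of Iqgap2, a scaffold gene on the opposite strand, but their annotated exons do not overlap. F2rl1, the family member PAR2, was at or below 0.14 FPKM in every library.

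The nucleotide receptors were led by the ATP-gated channel P2rx1. It was at 16.65, 23.26 and 13.2 FPKM in KO 1 to KO 3, against 15.53, 18.46 and 12.7 FPKM in WT 1 to WT 3. Number 2 was the highest and number 3 the lowest in both genotypes, and KO was higher in 3 of 3 pairs, by ratios of 1.07, 1.26 and 1.04. The groups overlapped, and the difference was 0.15 (SE 0.26; limma, adjusted p = 1.00; 95% interval −0.45 to 0.76).

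P2ry1, the Gq-coupled ADP receptor, was at 11.37, 9.46 and 10.02 FPKM in KO 1 to KO 3, against 9.4, 8.14 and 13.01 FPKM in WT 1 to WT 3. WT enclosed the KO range, and the difference of 0.03 (SE 0.24; limma, adjusted p = 1.00) had an interval of −0.52 to 0.58. An antisense transcript annotated over its exons was not analysed here, and the strand setting of the libraries is not given, so reads of both strands cannot be told apart.

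P2ry12, the Gi-coupled ADP receptor that antiplatelet drugs block, was scarce. It was at 1.84, 0.25 and 0.58 FPKM in KO 1 to KO 3, against 1.2, 0.35 and 0.19 FPKM in WT 1 to WT 3, and it did not pass the filter. Tested without the filter, its difference was 0.22 (SE 0.36; limma, adjusted p = 1.00). Pair 1 held the highest value of each genotype. At the estimated depths and the length of its longest coding transcript, these values stand for up to about 57, 12 and 32 fragments in KO 1 to KO 3 and up to about 51, 15 and 8 in WT 1 to WT 3. P2ry1 exceeded P2ry12 by 6.18 to 37.8 times in KO libraries and by 7.83 to 68.5 times in WT libraries. P2ry12 shares annotated exon sequence with Med12l on the opposite strand, and without strand, reads there cannot be told apart. Med12l, a gene of the Mediator kinase module, was likewise highest in number 1, at 7.86 FPKM in KO 1 and 5.22 FPKM in WT 1. Its other values were 4.28 and 4.33 FPKM in KO 2 and KO 3, against 4.13 and 3.17 FPKM in WT 2 and WT 3.

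Other receptors for nucleotides and adenosine were measured beside them. Of the 14 in the table, 9 were tested and 0 passed (limma; 0 also at an unadjusted p under 0.05, with or without the block). P2rx4, another ATP-gated channel, was above P2rx1 in level, at 28.0 ± 9.06 FPKM in KO and 28.2 ± 1.11 FPKM in WT (SD, n = 3 each). P2ry14, a receptor for UDP-sugars, was 13.9 ± 3.90 FPKM in KO and 12.5 ± 2.62 FPKM in WT. P2rx7 was 7.50 ± 2.94 FPKM in KO and 5.82 ± 0.40 FPKM in WT, and the adenosine receptor Adora2b 2.21 ± 0.34 FPKM in KO and 1.37 ± 0.48 FPKM in WT (SD, n = 3 each). The groups of Adora2b did not overlap, with KO at 2.6, 2.05 and 1.97 FPKM and WT at 1.47, 1.8 and 0.85 FPKM. Adora2b was 1 of 9 tested genes here with such groups, against 4.35% of all tested genes. Among the rest, the means of P2ry2 and P2ry10 lay at 5.71 and 5.33 FPKM in KO, against 5.76 and 5.34 FPKM in WT. P2ry13 averaged 1.90 FPKM in KO and 1.45 FPKM in WT, Adora2a 3.28 FPKM in KO and 2.78 FPKM in WT, and Adora3 1.67 FPKM in KO and 1.85 FPKM in WT.

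Of the prostanoid receptors, Ptger3 varied least. It was at 13.87, 13.76 and 12.88 FPKM in KO 1 to KO 3, against 14.49, 11.45 and 13.74 FPKM in WT 1 to WT 3. The highest of the 6 values was 1.27 times the lowest, and the difference of 0.03 (SE 0.21; limma, adjusted p = 1.00) had an interval of −0.44 to 0.51.

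Ptgir, the prostacyclin receptor, was at 8.43, 4.91 and 6.32 FPKM in KO 1 to KO 3, against 7.07, 3.02 and 3.84 FPKM in WT 1 to WT 3. KO was higher in 3 of 3 pairs, by ratios of 1.19, 1.63 and 1.65, but the groups overlapped because WT 1 exceeded KO 2 and KO 3. The difference was 0.46 (SE 0.33; limma, adjusted p = 1.00), with an interval of −0.28 to 1.20. With the block the standard error was 0.17 and the unadjusted p 0.0207, but the adjusted p was 0.683 (limma). It was 0.39 against the mean of the 13 megakaryocyte markers and 0.26 against Itga2b (exact permutation p = 0.5 and 0.7, without pairing), and KO was higher in 3 of 3 pairs on both scales. Single libraries decided the value against the markers: it was 0.051 without KO 1, −0.014 without WT 2 and 0.91 without WT 1.

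Tbxa2r, the thromboxane receptor, was at 2.74, 2.33 and 1.84 FPKM in KO 1 to KO 3, against 3.58, 1.42 and 4.95 FPKM in WT 1 to WT 3. The WT libraries enclosed the KO range, and the pairs disagreed, with KO to WT ratios of 0.765, 1.64 and 0.372. The difference was −0.30 (SE 0.36; limma, adjusted p = 1.00; 95% interval −1.11 to 0.51), but −0.02 without WT 3 and −0.67 without WT 2. Prostacyclin receptor transcript exceeded thromboxane receptor transcript by 3.08, 2.11 and 3.43 times in KO 1 to KO 3. In WT 1 and WT 2 the ratio was 1.98 and 2.13, and in WT 3 it was 0.776, so the groups overlapped.

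Of 7 related lipid mediator receptors in the table, 4 were tested and 0 passed (limma). At an unadjusted p under 0.05 limma gave 0 of the 4 without the block and 1 with it, against 0.676% and 6.93% of all genes. That gene, Ptafr, the receptor for platelet-activating factor, was 9.49 ± 2.25 FPKM in KO and 6.57 ± 1.05 FPKM in WT (SD, n = 3 each), higher in 3 of 3 pairs (limma with the block, unadjusted p = 0.0182, adjusted p = 0.683). The other prostaglandin E2 receptors were Ptger1, at 13.9 ± 8.84 FPKM in KO and 10.5 ± 5.39 FPKM in WT, Ptger4, at 8.89 ± 2.69 FPKM in KO and 7.16 ± 1.43 FPKM in WT, and Ptger2, at 1.51 ± 0.29 FPKM in KO and 1.23 ± 0.38 FPKM in WT (SD, n = 3 each). Ptgdr, a prostaglandin D2 receptor, was listed at 0 in every library. The serotonin receptor gene Htr2a was 3.49 ± 0.52 FPKM in KO and 3.79 ± 0.24 FPKM in WT.

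Of the 10 receptors, Pear1 alone had groups that did not overlap. This EGF-repeat protein becomes phosphorylated when platelets make contact. It was at 7.15, 5.8 and 6.55 FPKM in KO 1 to KO 3, against 4.88, 4.85 and 4.61 FPKM in WT 1 to WT 3. All KO libraries were above all WT libraries, as for 3.32% of tested genes, and the pair ratios were 1.47, 1.20 and 1.42. The difference was 0.37 (SE 0.22; limma, adjusted p = 1.00), with a 95% interval of −0.13 to 0.88. With the block the unadjusted p was 0.0443 and the adjusted p 0.717 (limma). Against the megakaryocyte markers the difference was 0.30 (exact permutation p = 0.4; 0.075 without KO 1 and 0.54 without WT 1), and against Itga2b 0.17 (exact permutation p = 0.7), and on this second scale KO was higher in 2 of 3 pairs. Its annotated exons overlap those of Lrrc71 on the same strand, a gene at 0.15 to 0.79 FPKM in KO libraries and 0.1 to 0.4 FPKM in WT libraries. The related genes Megf10 and Megf11 did not pass the filter.

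Pear1 lies on chromosome 3, as do Txnip, P2ry1, P2ry12 and Ptger3. Counting tested genes along the chromosome, Pear1 stood 129 steps from Txnip, P2ry1 177 and Ptger3 205. Of 400 tested genes within 200 steps of Txnip, 6.00% had groups that did not overlap in either direction, against 4.35% of all tested genes. Limma gave 9 of the 400 an unadjusted p under 0.05 without the block and 38 with it, against 76 and 780 of all 11249 genes. After adjustment limma called 1 of the 400 higher without the block and 2 with it. These were all of the genes called higher among the 11249. The part of linkage to the targeted gene in the Pear1 values was not tested. The Pear1 promoter window is shown because Pear1 alone of the 10 receptors was separated by genotype. Capitals mark the ETS letters 48 bases before the start, read on the opposite strand.
Pear1, chr3:87768904-87769203, minus strand, RefSeq on GRCm38.p6: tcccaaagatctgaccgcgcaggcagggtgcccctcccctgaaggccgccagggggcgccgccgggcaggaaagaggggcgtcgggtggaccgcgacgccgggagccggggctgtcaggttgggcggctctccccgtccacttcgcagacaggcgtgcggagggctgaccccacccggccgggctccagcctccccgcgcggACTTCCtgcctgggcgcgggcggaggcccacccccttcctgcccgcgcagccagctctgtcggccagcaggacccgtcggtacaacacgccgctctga

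Replicate number moved with several receptors. In 6 of the 9 tested receptors the same number held the highest library in KO and in WT, against 65.0% of all tested genes, a similar share. F2r, F2rl3 and P2rx1 were highest in number 2 in both genotypes, and Ptgir, Ptger3 and Pear1 in number 1. KO was higher in 3 of 3 pairs for P2rx1, Ptgir and Pear1, 3 of 9 tested receptors, where 20.4% of all genes were. Marker sums also moved with number: the 14 megakaryocyte markers summed to 701.9 FPKM in KO 1, 1914 in KO 2 and 1050 in KO 3, against 666.8 in WT 1, 1814 in WT 2 and 1413 in WT 3. Most of each sum was Pf4, at 476.3, 1544.74 and 771.73 FPKM in KO 1 to KO 3, against 465.34, 1434.86 and 1128.89 FPKM in WT 1 to WT 3. Not every marker followed: Itgb3 was highest in number 1 (41.53 FPKM in KO 1, 45.46 in WT 1) and Vwf in number 3 (7.64 FPKM in KO 3, 6.28 in WT 3).

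**Figure D3:**
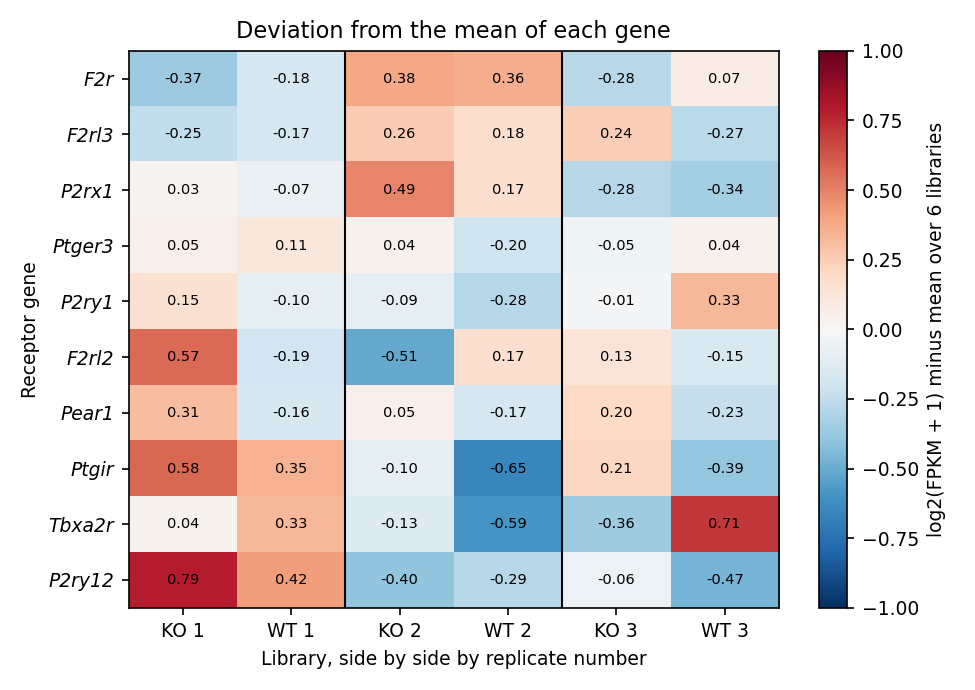
Each cell gives log2(FPKM + 1) of a receptor in 1 library minus its mean over the 6 libraries, with red above and blue below the mean and libraries of the same replicate number side by side, KO left of WT. F2r is above its mean in KO 2 (0.38) and WT 2 (0.36), P2ry12 in KO 1 (0.79) and WT 1 (0.42), and F2rl2 departs in opposite ways in KO 1 (0.57) and KO 2 (−0.51).

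Markers of other cell types that can carry some of these receptors varied between libraries. All 12 tested markers of monocytes and macrophages had higher means in KO, and their sums were 1783, 1348 and 1774 FPKM in KO 1 to KO 3, against 848.1, 1306 and 1907 FPKM in WT 1 to WT 3. All 12 differences were positive (median 0.46), where 7131 of all 11249 genes were positive (median 0.06). Limma called 0 of the 12. At an unadjusted p under 0.05 limma gave 0 without the block and 6 with it, against 0.676% and 6.93% of all genes. The macrophage complement gene C1qa was at 8.64, 4.92 and 8.13 FPKM in KO 1 to KO 3, against 1.36, 0.68 and 10.19 FPKM in WT 1 to WT 3. Mast cell and basophil markers summed to 1408, 1082 and 627.4 FPKM in KO 1 to KO 3, against 1543, 1123 and 1051 FPKM in WT 1 to WT 3, with lower KO means in 6 of 9. Eosinophil markers summed to 193.2 to 552.4 FPKM in KO and 418 to 722.3 FPKM in WT. All 6 tested had negative differences (median −0.56), where 4118 of all 11249 genes were negative. Limma called 0 of the 6, with an unadjusted p under 0.05 in 1 without the block and 4 with it, against the same shares of all genes. Hbb-bt, a globin gene, was listed with the same values as Hbb-b2 in every library and was left out of the erythroid sum after this was seen. The other erythroid markers summed to 76.57 to 126.2 FPKM in KO and 88.63 to 175.6 FPKM in WT, with lower KO means in 7 of 8 that passed the filter. The endothelial gene Cdh5 was at most 0.04 FPKM. The part of these cells in the receptor values was not tested.

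Transcripts of most genes that encode carriers of the receptors' signals passed the filter, and none of these genes passed the test. Of 70 coupling genes in the table, 64 were tested, 53 with positive and 11 with negative differences, where 7131 of all 11249 genes were positive, and the median was 0.14, against 0.06 for all genes. Limma called 0 of the 64 with or without the block, and at an unadjusted p under 0.05 it gave 0 without the block and 4 with it, where the block gave 6.93% of all genes. Among G protein alpha subunits, the Gs subunit Gnas had 293 ± 68.4 FPKM in KO and 284 ± 61.9 FPKM in WT, and the Gi subunit Gnai2, a partner of P2ry12, 141 ± 42.6 FPKM in KO and 129 ± 37.4 FPKM in WT (SD, n = 3 each). Gna13, a partner of thrombin and thromboxane receptors, was 41.8 ± 4.41 FPKM in KO and 36.6 ± 6.64 FPKM in WT. The Gq-class subunit gene Gna11 was 5.10 ± 1.37 FPKM in KO and 3.53 ± 0.84 FPKM in WT, higher in 3 of 3 pairs (limma, adjusted p = 1.00, and 0.683 with the block). Gna15 was 31.4 ± 5.70 FPKM in KO and 27.5 ± 1.65 FPKM in WT, and Gnaq, the partner of P2ry1, 11.2 ± 4.25 FPKM in KO and 9.75 ± 3.10 FPKM in WT.

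Of the enzymes behind the G proteins, 12 of 13 in the phospholipase C and calcium group had positive differences (median 0.17). For these groups, the background was 7131 positive of all 11249 genes (median 0.06). That median was 0.22 with a common FPKM sum, 0.0077 with quantile normalization and −0.019 with median-of-ratios scaling. The groups were not counted under those scalings. The IP3 receptor Itpr1 was 21.6 ± 3.82 FPKM in KO and 17.5 ± 3.61 FPKM in WT, the protein kinase C gene Prkcd 60.4 ± 15.8 FPKM in KO and 49.8 ± 11.2 FPKM in WT, and Plcb4 4.47 ± 0.77 FPKM in KO and 3.66 ± 0.72 FPKM in WT. In the cAMP and cGMP group 14 of 16 were positive (median 0.19). Adenylate cyclase Adcy6 was at 4.94, 6.02 and 4.8 FPKM in KO 1 to KO 3, against 3.42, 3.44 and 3.86 FPKM in WT 1 to WT 3. Its groups did not overlap, and its difference was 0.45 (limma, adjusted p = 1.00, and 0.683 with the block). Of the 64 tested coupling genes, 4 had groups that did not overlap in either direction, against 4.35% of all tested genes. The cyclases Adcy7 and Adcy9 averaged 37.9 and 5.82 FPKM in KO, against 30.6 and 4.35 FPKM in WT. All 8 PI3-kinase and Akt genes were positive (median 0.08), with Pik3r6, a regulatory subunit of the gamma class, at 3.78 ± 2.21 FPKM in KO and 1.77 ± 0.81 FPKM in WT (SD, n = 3 each; limma, adjusted p = 1.00, and 0.609 with the block). Pik3r5 and the catalytic subunit Pik3cb averaged 5.08 and 12.4 FPKM in KO, against 3.72 and 10.6 FPKM in WT. G protein beta and gamma genes split 5 to 4 (median 0.01). Gng5 was at 151.86, 152.25 and 168.35 FPKM in KO 1 to KO 3, against 178.9, 401.92 and 181.74 FPKM in WT 1 to WT 3. WT 2, the library with the largest FPKM sum, stood far above the others. The groups of Gng5 did not overlap, with KO lower in 3 of 3 pairs (limma with the block, unadjusted p = 0.0286, adjusted p = 0.683). Gng10 and Gng2 averaged 60.0 and 16.5 FPKM in KO, against 73.2 and 19.4 FPKM in WT.

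Genes that end receptor signalling were tested in 14 of 18 cases, and limma called 0 with or without the block. At an unadjusted p under 0.05 limma gave 0 of the 14 without the block and 2 with it, against 0.676% and 6.93% of all genes. Arrb1, an arrestin that uncouples activated receptors, was at 37.12, 34.75 and 34.05 FPKM in KO 1 to KO 3, against 27.78, 26.94 and 29.23 FPKM in WT 1 to WT 3. Its groups did not overlap and KO was higher in 3 of 3 pairs, with a difference of 0.32 (SE 0.18; limma, adjusted p = 1.00, and 0.717 with the block). Arrb1 was 1 of 14 tested genes of this kind with such groups, against 4.35% of all tested genes in either direction. The receptor kinases Adrbk1 and Adrbk2 were 90.7 ± 10.2 and 16.9 ± 6.07 FPKM in KO, against 74.9 ± 7.47 and 12.8 ± 2.63 FPKM in WT (SD, n = 3 each). RGS proteins, which shorten the active state of G proteins, split 3 to 4. Rgs18, abundant in megakaryocytes, was at 59.63, 103.14 and 72.78 FPKM in KO 1 to KO 3, against 65.26, 207.62 and 69.13 FPKM in WT 1 to WT 3, and WT 2 again stood highest. Rgs19 and Rgs3 averaged 24.9 and 1.99 FPKM in KO, against 28.6 and 1.62 FPKM in WT.

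Genes that supply or remove the ligands were tested in 14 of 23 cases, 7 with positive and 7 with negative differences. Limma called 0 with or without the block, and 1, Ptges2, had an unadjusted p under 0.05 in both fits. Of all genes, 0.676% had such a p without the block and 6.93% with it. Ptges2, an enzyme named for prostaglandin E2 synthesis, was at 3.15, 3.82 and 5.56 FPKM in KO 1 to KO 3, against 10.24, 7.34 and 8.86 FPKM in WT 1 to WT 3. Its groups did not overlap, and the difference was −0.94 (SE 0.27; limma, adjusted p = 1.00, and 0.382 with the block). Ptges2 was 1 of the 14 tested genes with such groups, against 4.35% of all tested genes in either direction. Of the enzymes that make thromboxane, Ptgs1 was 25.4 ± 8.26 FPKM in KO and 23.4 ± 6.19 FPKM in WT, and Tbxas1 43.0 ± 8.85 FPKM in KO and 41.7 ± 7.96 FPKM in WT (SD, n = 3 each). Pla2g4a, which frees arachidonic acid, was 53.5 ± 15.6 FPKM in KO and 61.4 ± 14.6 FPKM in WT, and Ptges3 149.5 ± 52.4 FPKM in KO and 173.9 ± 53.3 FPKM in WT. Entpd1, which breaks down ATP and ADP, was 2.85 ± 1.47 FPKM in KO and 2.67 ± 0.10 FPKM in WT. Enpp4, Slc17a9, a vesicular nucleotide transporter, and the thrombin inhibitor Serpine2 averaged 6.14, 4.53 and 27.5 FPKM in KO, against 6.75, 4.997 and 24.5 FPKM in WT. The prothrombin gene F2 was at or below 0.34 FPKM in every library.

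**Figure D4:**
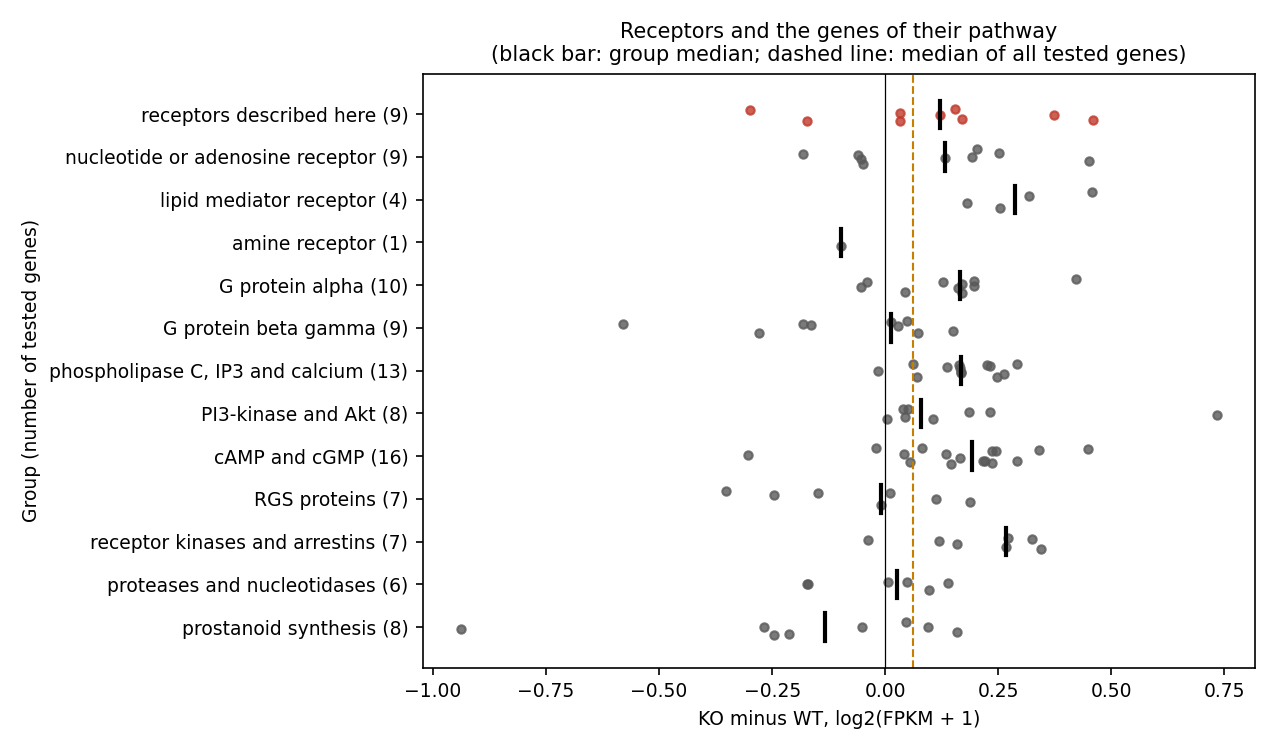
Difference between KO and WT on the log2(FPKM + 1) scale for the 9 tested receptors (red) and for groups of tested genes for related receptors, coupling, desensitisation and ligand supply (grey); each point is 1 gene, black bars are group medians and the dashed line is the median of all tested genes, 0.06. The receptors' median is 0.12 and that of the prostanoid synthesis genes is −0.13, with Ptges2 farthest to the left at −0.94.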

How the data were processed

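RNA from 6 samples was analysed, 3 KO and 3 WT, grouped by sample title. The authors deposited FPKM per gene symbol with 2 decimals. Per the submitters' processing notes, FastQC, Trimmomatic 0.39, STAR 2.7.0a and RSEM 1.2.31 were used with build mm9; the roles, settings, annotation and strand setting were not found in the labels. RSEM shares ambiguous reads by estimation. Differences were tested across the 11249 genes that reached 1 FPKM in 3 or more libraries, using limma 3.58.1 in R 4.3.3 (eBayes with a trend, two-sided) on log2(FPKM + 1), which understates changes of low genes. Benjamini-Hochberg adjustment ran over all genes, with a threshold of 0.05.

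The members and gene lists were chosen with earlier results of these data known. Lists were described by counts and medians; 1 group of coupling genes, counted in the 64, is not reported here on its own. All 10 receptors are named, with up to 3 genes of smallest p per pathway role and the tested relatives; Gnas, Gnai2, Gnaq, Ptgs1, Tbxas1, Entpd1, C1qa, F2, F2rl1, Ptgdr, Megf10 and Megf11 were added after their values were seen.

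Deviations from the group means correlated between same-numbered KO and WT libraries (r = 0.81, 0.59 and 0.38), so the numbers were taken to pair the samples and were fitted as a replicate block beside the main fit. No label states the meaning of these numbers. Depth was estimated from low values of genes with 1 transcript, with GENCODE lengths on GRCm38 less 200 bases, and is approximate; intervals cover the spread between libraries only.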

Additional observations from a re-analysis of the deposited data

How the results depend on the processing

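No tested receptor passed under any of the 20 alternatives to the fit, leaving out single libraries included, and the smallest adjusted p among them was 0.175 (limma). Pear1 stayed between 0.26 and 0.52 and Ptgir between 0.25 and 0.75, in the same direction under all 20; relative to the megakaryocyte markers, Ptgir was −0.014 without WT 2. The median of all genes moved by scaling, to 0.22 with a common FPKM sum, and the receptors' median moved with it to 0.28 (0.22 with the sum taken without Rpph1 and Rmrp). It was 0.014 with quantile normalization, with or without the replicate block, and 0.015 to 0.23 with single libraries left out.

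Small differences changed sign. F2r was 0.0039 with a common sum. P2ry1 was −0.061 with quantile normalization, with or without the block, −0.047 with median-of-ratios scaling, and −0.076 and −0.048 with the replicate block without pair 1 or 2. Ptger3 was −0.050, −0.047 and −0.073 with quantile normalization (either fit), median-of-ratios scaling and the block without pair 2. With the block, F2rl2 was −0.20 without pair 1, and F2rl3 −0.0012 and Tbxa2r 0.084 without pair 3. With single libraries left out, F2r ran from −0.41 to −0.033, Tbxa2r from −0.67 to −0.020, F2rl2 from −0.13 to 0.41, P2ry1 from −0.10 to 0.21, P2rx1 from −0.051 to 0.34 and Ptger3 from −0.060 to 0.098. Relative to Itga2b alone in place of 13 markers, F2rl2 was −0.077, F2rl3 −0.028 and P2rx1 −0.043.

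Over all genes limma called 1 higher and 1 lower. It called 2 higher with the replicate block, also after quantile normalization. With no filter it called 0 higher (161 at an unadjusted p under 0.05), and with 1 FPKM required in all libraries 0 higher and 0 lower (35 and 23). With the block it called 9 higher and 27 lower without pair 1, 94 and 48 without pair 2, and 68 and 50 without pair 3. With single libraries left out it called 0 to 1 higher and 1 to 2 lower. The cause of these changes was not tested. Depth limits P2ry12 most, at up to about 8 fragments in WT 3.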
